A study of Mus musculus with 2 samples.

Results

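Endothelial cells of healed mouse wounds that carried transcripts of at least 3 of 6 activation genes, Selp, Icam1 and Csf3 among them, and of at most 1 of 5 capillary and arterial genes, were described from single-cell RNA sequencing of sorted dermal cells. A cell was called endothelial when it held at least 3 UMIs (unique molecular identifiers, each marking 1 captured transcript) of Pecam1, Cdh5 and Egfl7 together and at most 2 UMIs of Pdgfra, Sox10 and Rgs5 together. It was called activated when at least 3 of the 6 genes Selp, Csf3, Rnd1, Dusp2, Icam1 and Iigp1 had a UMI and at most 1 of the 5 genes Rbp7, Gpihbp1, Gja4, Sox17 and Cd300lg had one. This gave 201 activated cells among 884 endothelial cells and 4648 cells in all. Control wounds gave 133 activated cells among 626 endothelial cells (21.25%, exact binomial 95% interval 18.1% to 24.66%), and SM22-SmoM2 wounds gave 68 among 258 (26.36%, 21.09% to 32.18%). These intervals, and all others given here, cover counting error only.

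The study asked how Hedgehog activation in SM22-expressing dermal cells alters healing of small wounds. Control mice were SM22rtTA; tetO-Cre; R26-Tomato and the others SM22rtTA; tetO-Cre; R26-SmoM2/Tomato, both at 4 to 5 weeks of age and on doxycycline (20 g/kg) from day 1 after wounding. The SM22α (Tagln) promoter drives rtTA, so doxycycline induces Cre, which switches on the red reporter Tomato and, in SM22-SmoM2 mice, SmoM2, a constitutively active Smoothened. Dermis was taken 3 days after complete re-epithelialization, Tomato-positive cells were sorted, and wounds of several mice were pooled into 1 library per genotype. Below, control wounds and SM22-SmoM2 wounds each mean 1 such library. No label ties cells to single mice of a pool, so genotype, pool and library cannot be told apart and no test between conditions was made. The promoter is known for smooth muscle and myofibroblasts, so the endothelial cells here are those that passed the Tomato sort and need not represent all vessels of the wound. Tagln itself was measured at 178 CPM (UMIs per 1000000 UMIs of the cells summed; 154 to 205) in activated cells of control wounds and at 72.3 CPM (49.8 to 102) in those of SM22-SmoM2 wounds.

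Activated cells were shallower than the other endothelial cells, with a median of 6486 UMIs against 10030 in control wounds and 5442 against 8296.5 in SM22-SmoM2 wounds. Since the rule asks for genes to be seen and for others not to be seen, depth enters it on both sides. After every cell was thinned to 2500 UMIs, the same rule took 175 of 599 endothelial cells (29.22%) in control wounds and 63 of 225 (28%) in SM22-SmoM2 wounds. Of the cells chosen after thinning, 78 of 175 (44.57%) and 40 of 63 (63.49%) were also activated by the rule on all UMIs, so which cells were chosen depended strongly on depth, in control wounds for the larger part of them. Activated and other cells also differed in the sex of the mice they came from. Among cells that could be called by Y-linked transcripts or Xist, male cells were 53.2% (42.6% to 63.6%) of the activated and 69.4% (64.6% to 74.0%) of the other endothelial cells in control wounds, and 48.1% (34.3% to 62.2%) and 69.7% (61.5% to 77.0%) in SM22-SmoM2 wounds. The part of sex in the comparisons below was not tested.

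The defining endothelial transcripts were present in activated cells. Pecam1, an adhesion molecule of endothelial junctions, was at 869 CPM in activated and 972 CPM in other cells of control wounds, and at 828 and 622 CPM in SM22-SmoM2 wounds. Cdh5, which encodes VE-cadherin, was at 491 and 639 CPM and at 495 and 509.5 CPM, and Egfl7, a secreted endothelial protein, at 1322 and 1688 CPM and at 1383 and 1316 CPM. Some barcodes also held transcripts of other lineages. Barcodes with more than 1% of their UMIs in lists of fibroblast, mural, Schwann, immune and keratinocyte genes, here called mixed, were 6 of 133 activated cells (4.51%) in control wounds and 3 of 68 (4.41%) in SM22-SmoM2 wounds. Among the other endothelial cells they were 34 of 493 (6.90%) and 40 of 190 (21.05%). They held a larger share of the UMIs than of the cells. Without them the UMIs summed fell from 1101913 to 943747 (activated) and from 5744588 to 5189001 (other) in control wounds. In SM22-SmoM2 wounds the sums fell from 456421 to 397073 and from 1858825 to 1265839. The medians of gene lists, and the genes most affected, are therefore given with and without mixed barcodes. Other levels of single genes are with all barcodes unless said otherwise. Without mixed barcodes Pecam1 was at 962 and 1062 CPM in control and at 942 and 881 CPM in SM22-SmoM2 wounds, Cdh5 at 549 and 694 CPM and at 541.5 and 627 CPM, and Egfl7 at 1439 and 1840 CPM and at 1572 and 1863 CPM. The limit of 1% was set after the data had been seen.

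In activated cells, all 7 fibroblast genes were detected in both libraries, with a summed level of 4082 and 6067 CPM led by Col3a1 and Col1a1. Without mixed barcodes the sums were 972 and 635 CPM, with Lox at 0 in control wounds. The 6 Schwann genes summed to 233 and 30.7 CPM with all barcodes, with Cdh19 at 0 in SM22-SmoM2 wounds. The 10 immune genes summed to 275 and 41.6 CPM, led by Lyz2 in the control and Cd14 in SM22-SmoM2 wounds, where Ptprc, Itgb2, Tyrobp, Cd3e and Cd52 were at 0, while only Cd3e was at 0 in the control. The 7 mural genes summed to 215 and 89.8 CPM, led by Tagln, with Myh11, Notch3 and Des at 0 in SM22-SmoM2 wounds. The 5 keratinocyte genes summed to 313 and 10.95 CPM, led by Krt14 and Krt10, with Krt14, Krt1 and Krt15 at 0 in SM22-SmoM2 wounds. The 7 platelet and red cell genes summed to 16.3 and 39.4 CPM, led by Itga2b, with Ppbp, Gp9 and Hba-a2 at 0 in both libraries and also Pf4, Hbb-bs and Hba-a1 in SM22-SmoM2 wounds. Barcodes with both Xist and Y-linked transcripts, which can arise when a droplet holds 2 cells, were 6 of 133 and 1 of 68.

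Endothelium that meets inflammatory cytokines is known to pass through a rapid program driven by NF-kB and AP-1 factors, in which P-selectin and E-selectin slow passing leukocytes, ICAM-1 and VCAM-1 hold them, and chemokines and colony-stimulating factors attract or mobilise them. Leukocytes leave the blood mainly across post-capillary venules. Venular endothelium is marked by the atypical chemokine receptor Ackr1, whereas capillary endothelium carries genes of lipid uptake such as Gpihbp1 and Rbp7, and arterial endothelium carries connexin 37 (Gja4) and Sox17.

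Promoters of the genes that name the population and of genes related to them are shown because the factors named above bind short motifs there. Each run holds 250 bases before and 50 after the start site, 5′ to 3′ on the gene's strand, as listed by RefSeq for GRCm38.p6, and 3 of the 6 activation genes had an entry. Capitals mark a motif match on either strand. In Selp (chr1:164115014-164115313, plus strand) the capitals are an AP-1 motif TGANTCA starting 139 bases before the start site. In Sele (chr1:164047984-164048283, plus strand), which encodes E-selectin, the same motif starts 73 bases before it. In Icam1 (chr9:21015690-21015989, plus strand) they are the 9 bases GGAAATTCC starting 153 bases before it, and in Nfkbia (chr12:55492598-55492897, minus strand), which encodes the NF-kB inhibitor IkBα, they are a match of the 10-base NF-kB consensus starting 29 bases before it.
Selp: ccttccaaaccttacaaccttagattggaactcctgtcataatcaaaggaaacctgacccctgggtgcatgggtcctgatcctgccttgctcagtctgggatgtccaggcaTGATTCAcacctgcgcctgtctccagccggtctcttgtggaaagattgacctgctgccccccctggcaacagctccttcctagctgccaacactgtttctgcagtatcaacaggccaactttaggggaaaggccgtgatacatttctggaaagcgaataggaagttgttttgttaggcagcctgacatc
Sele: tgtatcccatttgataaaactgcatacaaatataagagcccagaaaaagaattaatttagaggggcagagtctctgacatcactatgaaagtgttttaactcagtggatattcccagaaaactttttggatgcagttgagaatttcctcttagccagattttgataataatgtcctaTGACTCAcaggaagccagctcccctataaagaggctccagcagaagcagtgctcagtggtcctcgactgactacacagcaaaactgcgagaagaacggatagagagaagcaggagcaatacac
Icam1: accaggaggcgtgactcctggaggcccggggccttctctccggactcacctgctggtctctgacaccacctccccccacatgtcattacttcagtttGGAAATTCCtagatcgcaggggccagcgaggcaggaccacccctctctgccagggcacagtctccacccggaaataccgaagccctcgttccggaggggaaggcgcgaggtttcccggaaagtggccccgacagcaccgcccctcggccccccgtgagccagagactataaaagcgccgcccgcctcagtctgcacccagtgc
Nfkbia: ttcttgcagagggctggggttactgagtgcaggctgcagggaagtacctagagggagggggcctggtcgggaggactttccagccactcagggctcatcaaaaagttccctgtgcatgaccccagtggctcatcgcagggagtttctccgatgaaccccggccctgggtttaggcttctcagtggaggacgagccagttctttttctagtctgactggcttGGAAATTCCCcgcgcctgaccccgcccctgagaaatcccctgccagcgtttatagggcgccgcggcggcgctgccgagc
TGANTCA was found in 2565 of 32851 mouse promoters of this length (7.81%), GGAAATTCC in 104 (0.317%) and the 10-base NF-kB consensus in 1480 (4.505%), which was in 9 of 14 promoters of a list of NF-kB feedback genes. That list holds genes known to be induced by NF-kB, only some of which feed back on it. Of the genes named below as higher in activated cells, 12 had an entry. Of these 12, 1 (8.33%) held the NF-kB consensus and 0 held TGANTCA or GGAAATTCC. GGAAATTCC overlaps the consensus and was searched only after the sequences had been read. The promoters of Dusp2 (chr2:127335909-127336208, plus strand) and Ackr1 (chr1:173333454-173333753, minus strand) held none of these letters, nor the 10-base core of the interferon-stimulated response element, which was in 3.44% of all promoters. These matches describe letters and not binding.

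Having 3 or more of the 6 activation genes was not particular to the activated cells. It held for 418 of 626 endothelial cells (66.77%) in control wounds and for 151 of 258 (58.53%) in SM22-SmoM2 wounds. In control wounds the share was 66.5% among cells with at most 1 of the 5 capillary and arterial genes and 66.9% among those with 2 or more. In SM22-SmoM2 wounds these shares were 50.37% and 67.48%. In control wounds 285 of the 493 other endothelial cells had 3 or more activation genes and were kept out only by the limit of at most 1 of Rbp7, Gpihbp1, Gja4, Sox17 and Cd300lg, and in SM22-SmoM2 wounds 83 of 190. Exactly 1 of these was seen in 94 of 133 activated cells (70.68%) in the control and in 45 of 68 (66.18%) in SM22-SmoM2 wounds.

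**Figure D1:**
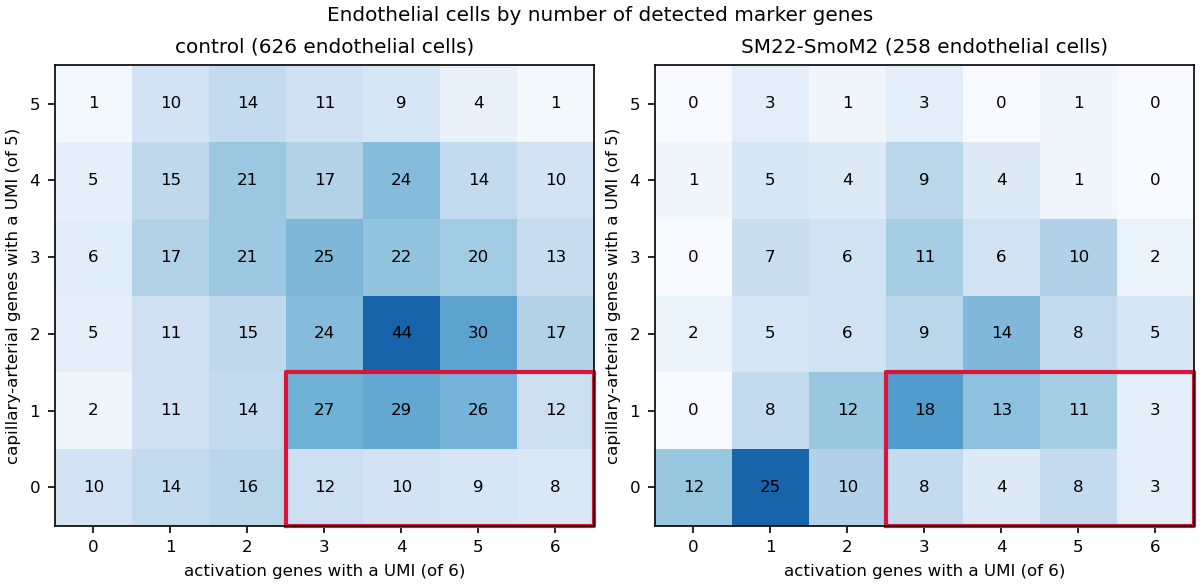
Number of endothelial cells by how many of the 6 activation genes (horizontal) and of the 5 capillary and arterial genes (vertical) had a UMI, in the control (left) and SM22-SmoM2 (right) library; darker squares hold more cells and the red frame holds the 133 and 68 activated cells. In control wounds the fullest square, with 44 cells, lies just outside the frame at 4 activation genes and 2 capillary or arterial genes.

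The other endothelial cells thus fall into 3 groups by the same genes. Cells with at least 3 activation genes and at least 2 capillary or arterial genes, here called rich in both gene groups, numbered 285 in the control and 83 in SM22-SmoM2 wounds. Cells with at most 2 activation genes and at least 2 capillary or arterial genes, called rich in capillary and arterial genes alone, numbered 141 and 40. Cells with at most 2 activation genes and at most 1 capillary or arterial gene, called poor in both, numbered 67 and 67, of which 10 and 12 had none of the genes of either group. Mixed barcodes made up 26 and 37 of the cells poor in both, but 3 and 3 of those rich in both and 5 and 0 of those rich in capillary and arterial genes alone. Comparisons with these 3 groups are therefore given without mixed barcodes. The groups then differed in depth, with median UMIs of 12047 and 9366 in cells rich in both gene groups and 4671 and 4079 in cells poor in both. Cells rich in capillary and arterial genes alone had 6748.5 and 5235.5, and activated cells 6373 and 5216. The part of depth in the comparisons with these 3 groups was not tested.

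Among the activated cells of control wounds, 39 had 3 of the 6 genes, 39 had 4, 35 had 5 and 20 had all 6. In SM22-SmoM2 wounds the numbers were 26, 17, 19 and 6. Icam1 was detected in 92.48% and 92.65% of the activated cells, Iigp1 in 92.48% and 95.59%, Dusp2 in 80.45% and 80.88%, Selp in 73.68% and 58.82% and Rnd1 in 63.16% and 60.29%. Csf3 was detected in 24.81% (33 of 133) and 19.12% (13 of 68), so most cells of this population showed no Csf3 transcript. In fibroblast-marked cells of the same libraries, which should lack P-selectin and had median depths of 10957.5 and 10383 UMIs, Selp was seen in 2.76% and 0.542% and Csf3 in 0.345% and 0.904%.

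The levels of the 6 genes, which chose the cells and are given as a description, were as follows. Selp (chr1:164115264-164150026), which encodes P-selectin, was at 443 CPM (404 to 484) in activated and 158 CPM in other endothelial cells of control wounds, and at 278 CPM (232 to 331) and 74.8 CPM in SM22-SmoM2 wounds. Csf3 (chr11:98701263-98703629), which encodes the granulocyte colony-stimulating factor G-CSF, was at 106 against 33.8 CPM and at 52.6 against 22.6 CPM. Icam1 (chr9:21015985-21028817) was at 619 against 356 CPM and at 589 against 225 CPM. Selp and Csf3 were lower in activated cells of SM22-SmoM2 wounds than of the control, while the intervals of Icam1 in activated cells overlapped between the libraries. Dusp2 (chr2:127336159-127338376), a nuclear phosphatase of MAP kinases, was at 391 against 279 CPM and at 418 against 212 CPM. Rnd1 (chr15:98663421-98677461), a small GTPase that loosens the actin cytoskeleton, was at 192 against 106 CPM and at 221 against 56.0 CPM. The interferon-inducible GTPase Iigp1, on chromosome 18, was at 953 against 726 CPM and at 795 against 440 CPM. All coordinates are of GRCm38. Selp and Icam1 overlap genes on the opposite strand, and the strand counted is not given in the sources used here.

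The 5 genes that the rule limits were unequally kept out. Rbp7 was at 1.81 and 8.76 CPM and Gja4 at 0.907 and 0 CPM in activated cells (0 UMIs, which allows up to 6.57 CPM), against 282 and 83.4 CPM and 145 and 41.4 CPM in the other endothelial cells. Gpihbp1, which holds lipoprotein lipase on capillaries, was seen in 20 and 4 activated cells, at 35.4 and 17.5 CPM against 372 and 257 CPM. Cd300lg, a receptor of capillary endothelium, was seen in 25 and 8 activated cells, at 40.8 and 48.2 CPM against 208.5 and 146 CPM. Sox17, a transcription factor of arterial endothelium, was the one seen most often, in 46 (34.59%) and 30 (44.12%) activated cells. It was at 83.5 against 197 CPM in the control, while its level in SM22-SmoM2 wounds, 131 CPM, was within counting error of the 127 CPM of the other endothelial cells.

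**Figure D2:**
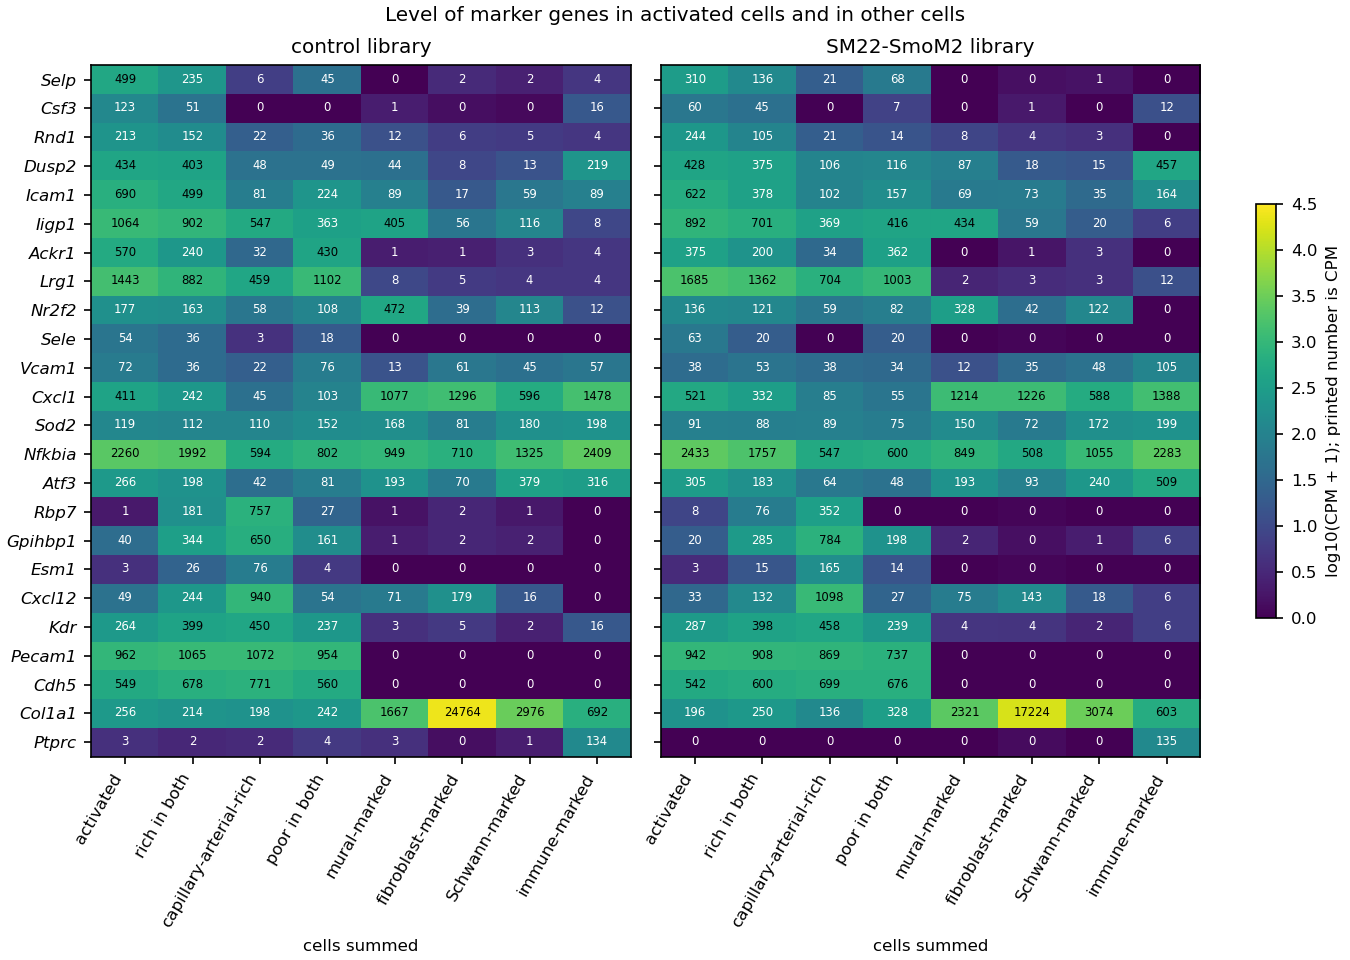
Level of 24 genes (rows) in summed cells of each group (columns), in the control (left) and SM22-SmoM2 (right) library; the printed number is CPM and the colour is log10(CPM + 1), with mixed barcodes left out of the 4 endothelial groups. Selp, Csf3 and Sele are near 0 in mural-, fibroblast- and Schwann-marked cells, while Cxcl1 is above the activated cells in all 4 other lineages.

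Across the 4 endothelial groups, taken without mixed barcodes, each of the 6 genes was highest in the activated cells and next in the cells rich in both gene groups. Selp was at 499 CPM in activated cells, 235 CPM in cells rich in both gene groups, 44.8 CPM in cells poor in both and 5.81 CPM in cells rich in capillary and arterial genes alone of control wounds, and at 310, 136, 68.2 and 21.2 CPM in SM22-SmoM2 wounds. Csf3 was at 123, 51.0, 0 and 0 CPM and at 60.4, 45.3, 6.82 and 0 CPM. With 0 UMIs, the control cells poor in both allow up to 13.4 CPM of Csf3. The intervals of neighbours in this order overlapped for Csf3 in SM22-SmoM2 wounds, where the log2 ratio to cells rich in both gene groups was 0.42 (-0.38 to 1.18). For Dusp2 the log2 ratios of activated cells to cells rich in both gene groups were 0.11 (-0.05 to 0.27) and 0.19 (-0.08 to 0.46), which include 0 in both libraries.

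Some of these genes were also high outside the endothelium. Iigp1 was at 405 and 434 CPM in mural-marked cells, and Dusp2 at 219 and 457 CPM in immune-marked cells. Selp stayed at or below 4.05 CPM in the mural-, fibroblast-, Schwann- and immune-marked cells of both libraries. Csf3 was at 16.2 and 11.7 CPM in immune-marked cells and at or below 1.29 CPM in the other 3 lineages, Rnd1 at or below 12.3 CPM in all 4, and Icam1 between 16.8 and 164 CPM.

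Few genes outside the rule passed 2-fold in both libraries when activated cells were set against all other endothelial cells. Among 5643 genes with at least 50 UMIs in the endothelial cells of each library, and without the genes of the rule, 5 (0.0886%) were at least 2-fold higher and 39 (0.691%) at least 2-fold lower in activated cells of both libraries. The 5 were Ackr1, Ctnnal1, Gatm, Mt1 and Mt2. Mt1 and Mt2, which encode metallothioneins, are outside the rule for named genes. Mt1 was at 109 against 36.4 CPM in control and at 120.5 against 42.5 CPM in SM22-SmoM2 wounds, and Mt2 at 78.05 against 12.4 CPM and at 169 against 27.4 CPM. Without mixed barcodes the log2 ratios fell from 1.58 and 1.5 to 0.75 and 0.75 for Mt1 and from 2.66 and 2.62 to 1.20 and 1.04 for Mt2. Without mixed barcodes, 3 of 4458 genes (0.0673%) were higher and 11 (0.247%) lower. None of the 5 was among those 3, which were B9d2, Cebpb and Cxcl1, and 8 of the 39 lower genes were among the 11. Of the 5, Gatm, Mt1 and Mt2 then had under 50 UMIs in the endothelial cells of a library and were not tested, and 29 of the 39 were not tested for the same reason. Since the rule used these cells and this contrast, these counts describe the cells chosen and support nothing further.

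Ackr1 (chr1:173331886-173333750), which encodes the receptor that venular endothelium uses to bind chemokines without signalling, headed the genes named as higher. It was at 499 CPM (458 to 543) in activated against 182 CPM in other cells of control wounds, and at 335 CPM (284 to 393) against 134 CPM in SM22-SmoM2 wounds, with log2 ratios of 1.46 (1.31 to 1.61) and 1.32 (1.02 to 1.61). Without mixed barcodes the ratios were 1.51 (1.36 to 1.66) and 1.00 (0.69 to 1.30), the latter from 375 against 188 CPM, just under 2-fold. Activated cells exceeded the cells rich in both gene groups by log2 ratios of 1.25 and 0.91 and those rich in capillary and arterial genes alone by 4.17 and 3.47, without mixed barcodes. Against the cells poor in both they stood at 0.41 (0.09 to 0.74) and 0.05 (-0.41 to 0.53), so by these ratios Ackr1 stood nearer to the cells poor in both gene groups than to those rich in both. Part of Ackr1 lies within the span of Cadm3 on the same strand, which could share its reads.

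The other genes named by the rule as higher span several functions. Bmp4, a bone morphogenetic protein, was at 157 against 82.2 CPM in the control and at 134 against 51.7 CPM in SM22-SmoM2 wounds. Ctnnal1, which encodes α-catulin, was at 116 against 55.7 CPM and at 74.5 against 35.5 CPM. The functions given here are known ones, and no shared function was tested among these genes. Tifa, an adaptor that binds TRAF proteins, was at 86.2 against 44.2 CPM and at 92.0 against 27.97 CPM. Map3k8, a MAP kinase kinase kinase that the NF-kB1 precursor holds inactive, was at 89.8 against 49.3 CPM and at 110 against 33.4 CPM. Arid5a, an RNA-binding protein that stabilises Il6 mRNA, was at 51.7 against 23.9 CPM and at 41.6 against 22.1 CPM. The leukotriene receptor gene Cysltr1, the cyclooxygenase gene Ptgs1, the stress-induced factor Atf3, the bZIP repressor Nfil3, and Gatm, Bcr, B9d2, Tlcd2 and Gm17056 completed the 15. All 15 log2 ratios had an interval above 0 in both libraries with all barcodes. Without mixed barcodes this held for all but Cysltr1 and Arid5a, whose ratios in SM22-SmoM2 wounds were 0.58 (-0.11 to 1.23) and 0.73 (-0.32 to 1.71).

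Among the 10 genes named as lower, Esm1, Cxcl12, Igfbp3 and Lgals3bp were lower in both libraries with and without mixed barcodes. Esm1, a gene of sprouting tip cells, had 3 UMIs in the activated cells of control wounds (2.72 CPM) and 1 in those of SM22-SmoM2 wounds (2.19 CPM), against 33.6 and 29.6 CPM in the other endothelial cells. Cxcl12, a chemokine that retains leukocytes and progenitors, was at 46.3 CPM (34.5 to 60.9) against 371 CPM and at 37.2 CPM (21.7 to 59.6) against 267 CPM, log2 ratios of -3.00 (-3.43 to -2.60) and -2.84 (-3.63 to -2.15). Igfbp3, an insulin-like growth factor binding protein, was at 61.7 against 333 CPM and at 52.6 against 195 CPM. In cells rich in capillary and arterial genes alone, Cxcl12 was at 940 and 1098 CPM without mixed barcodes, and the log2 ratio of activated to these cells was -3.71 and -3.08 for Igfbp3. In cells poor in both gene groups Cxcl12 was at 53.8 and 27.3 CPM, close to the activated cells.

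The other 6 named lower genes could not be shown to be lower in both libraries without mixed barcodes. Penk, Apod, Tmem119, Cygb and Lox are known from fibroblasts. Without mixed barcodes the log2 ratio of Apod in control wounds became 1.008 (0.05 to 1.89) and that of Penk 0.14 (-5.43 to 3.30), and Apod had too few UMIs for a ratio in SM22-SmoM2 wounds. Cd74, the invariant chain of antigen presentation, was at 82.6 against 336 CPM and at 21.9 against 129 CPM. Without mixed barcodes its log2 ratio remained -2.31 in control wounds and was 0.99 (-0.31 to 2.22) in SM22-SmoM2 wounds.

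**Figure D3:**
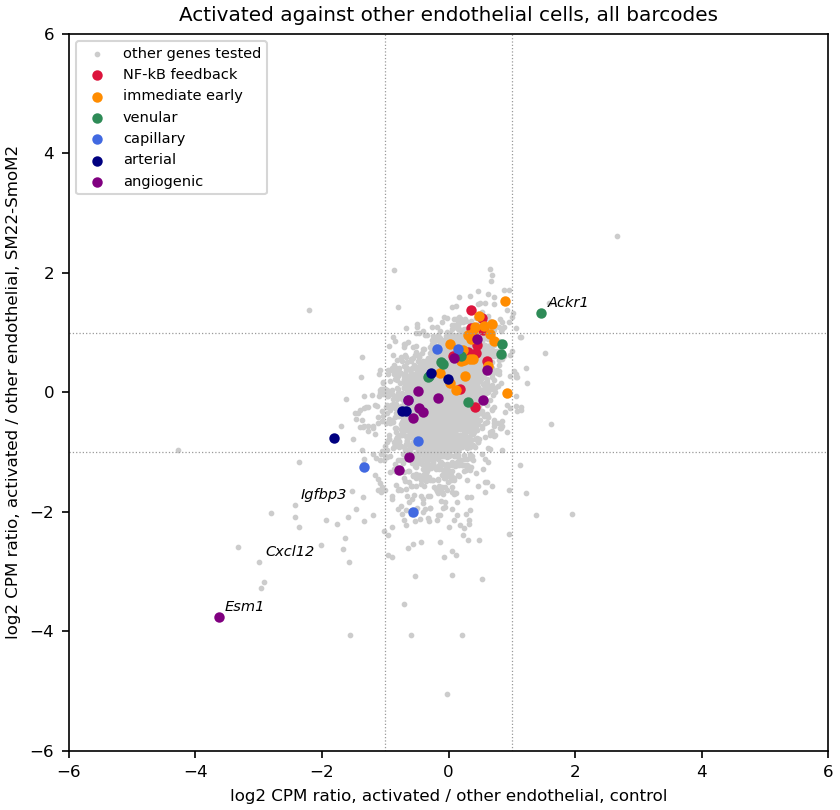
Log2 CPM ratio of activated to other endothelial cells in control wounds (horizontal) and in SM22-SmoM2 wounds (vertical) for each gene tested, with the genes of the rule left out; coloured points are genes of 6 lists and dotted lines mark 2-fold. Ackr1 lies beyond 2-fold higher and Esm1, Cxcl12 and Igfbp3 beyond 2-fold lower in both libraries with all barcodes, and NF-kB feedback and immediate early genes lie mostly above 0.

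The further adhesion genes differed among themselves. Sele was at 50.8 CPM (38.4 to 66.0) in activated against 25.9 CPM in other cells of control wounds, and at 54.8 CPM (35.4 to 80.9) against 11.3 CPM in SM22-SmoM2 wounds. Vcam1 was at 72.6 against 34.5 CPM in the control but at 37.2 against 43.6 CPM in SM22-SmoM2 wounds, where its log2 ratio was -0.23 (-1.07 to 0.54). Icam2, a constitutive ligand of leukocyte integrins, was lower in activated cells of both, at 152 against 232 CPM and at 87.6 against 132 CPM. The median log2 ratio of the 12 adhesion genes tested was -0.25 in the control and 0.00 in SM22-SmoM2 wounds, beside -0.05 and -0.08 over all genes. With mixed barcodes left out, the medians were -0.32 and -0.21 over 10 genes, beside -0.03 and -0.09, and 0 of the 10 were above 0 and 6 below 0 in both libraries, as were 25.3% and 38.9% of all genes.

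Genes of the NF-kB feedback list were mostly higher in activated cells. Those cells were themselves chosen by Icam1, Selp and Csf3, genes known to respond to NF-kB. The list holds genes induced by NF-kB, some of which, such as Nfkbia, feed back on it. Of the 11 genes tested, 10 had a ratio above 0 in both libraries, as 24.2% of all genes tested did, and none was 2-fold higher in both, and the median log2 ratio was 0.41 in the control and 0.68 in SM22-SmoM2 wounds. Without mixed barcodes the medians were 0.32 and 0.41 over 10 genes, 8 of them above 0 in both libraries. Nfkbia was at 2259 CPM in activated against 1543 CPM in other cells of control wounds, and at 2395 against 1163 CPM in SM22-SmoM2 wounds. Without mixed barcodes Nfkbia was at 2260 against 1616 CPM and at 2433 against 1397.5 CPM. Birc3, an inhibitor of apoptosis, was at 24.5 against 10.97 CPM and at 32.9 against 12.4 CPM. Sod2, the mitochondrial superoxide dismutase, was nearly level, with log2 ratios of 0.18 (-0.10 to 0.45) and 0.05 (-0.49 to 0.56).

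Immediate early genes, which respond within minutes to growth factors, stress and tissue dissociation, were higher in the same way. Of 22 tested, 20 had a ratio above 0 in both libraries, against 24.2% of all genes, with median log2 ratios of 0.37 and 0.75. Without mixed barcodes 16 of 20 did, against 25.3% of all genes, with medians of 0.28 and 0.52. None of these genes was 2-fold higher in both libraries, with or without mixed barcodes. Atf3 was at 274 against 148 CPM and at 333 against 116 CPM. Junb, a subunit of AP-1, was at 2488 against 1950 CPM and at 3567 against 1905 CPM. Without mixed barcodes Junb was at 2540 against 2069 CPM and at 3289 against 1993 CPM. Heat shock genes, which also respond to stress, had medians of 0.28 and 0.22 over 11 genes, and of 0.28 and 0.15 over 10 without mixed barcodes. Both libraries were made from dermis digested with collagenase.

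Set against the 3 groups of other endothelial cells, these lists separated. Relative to cells rich in capillary and arterial genes alone, the median log2 ratio without mixed barcodes was 1.19 in the control and 0.89 in SM22-SmoM2 wounds for the NF-kB feedback list, 1.26 and 1.21 for the immediate early list and 1.96 and 1.34 for cytokines and chemokines. Relative to cells poor in both gene groups the medians were 1.45 and 1.20, 1.14 and 1.43, and 1.42 and 1.11. Relative to cells rich in both gene groups they were 0.12 and 0.30, 0.09 and 0.30, and 0.28 and 0.06. The medians over all genes in these comparisons lay between -0.11 and -0.02. These groups were formed by the number of activation genes, so these medians describe the choice of cells and support nothing further. Against the cells poor in both gene groups the interferon list had medians of 0.69 and 0.93, and 17 of its 20 genes were above 0 in both libraries, as 29% of all genes tested were. Smaller medians were found for heat shock, at 0.39 and 0.32, small GTPase and phosphatase genes, at 0.31 and 0.58, endothelial factors, at 0.24 and 0.61, and haemostasis and tone, at 0.18 and 0.62. Adhesion, at -0.11 and 0.00, and antigen presentation, at 0.10 and 0.07, lay near 0.

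Genes past 2-fold were fewest against the cells rich in both gene groups. Without mixed barcodes, 144 of 4457 genes (3.23%) were at least 2-fold higher in activated cells than in cells rich in capillary and arterial genes alone in both libraries, and 70 (1.57%) lower. Against cells poor in both, 137 of 4452 (3.08%) were higher and 18 (0.404%) lower. Against cells rich in both gene groups, 0 of 4457 (0%) were higher and 9 (0.202%) lower. Nfkbia differed by log2 ratios of 1.93 and 2.15 from the cells rich in capillary and arterial genes alone, and by 0.18 and 0.47 from the cells rich in both gene groups.

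**Figure D4:**
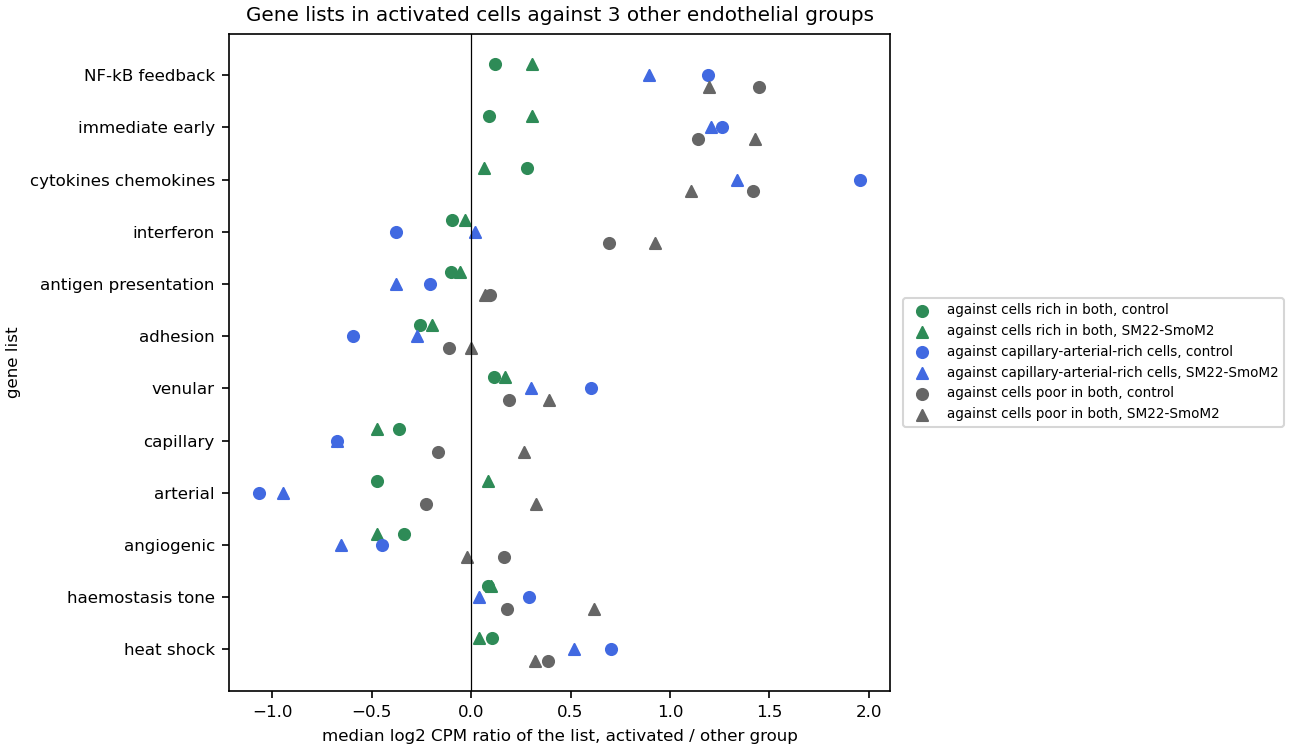
Median log2 CPM ratio of gene lists (rows) in activated cells against 3 groups of other endothelial cells (colours), in the control (circles) and SM22-SmoM2 (triangles) library, without mixed barcodes and without the genes of the rule. NF-kB feedback, immediate early and cytokine lists lie near 0.89 to 1.96 against cells with few activation genes and near 0.06 to 0.30 against cells rich in both gene groups.

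The cytokine and chemokine list was uneven. Of 8 genes tested, 4 had a ratio above 0 and 2 below 0 in both libraries, against 24.2% and 38.5% of all genes, with medians of 0.10 in the control and 0.89 in SM22-SmoM2 wounds. The order of the libraries turned without mixed barcodes, with medians of 0.573 in the control and 0.145 in SM22-SmoM2 wounds over 7 genes. Cxcl10, an interferon-induced chemokine, was at 236 against 154 CPM and at 362 against 116 CPM. Cxcl1, a neutrophil chemokine, was at 397 against 276 CPM and at 1312 against 519 CPM, while the fibroblast-, mural-, Schwann- and immune-marked cells lay between 588 and 1478 CPM. Without mixed barcodes Cxcl1 in activated cells was at 411 and 521 CPM. Il6 was at 53.5 against 26.1 CPM in the control and at 43.8 against 34.4 CPM in SM22-SmoM2 wounds, where its log2 ratio of 0.35 (-0.46 to 1.09) has an interval that includes 0.

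Interferon genes other than Iigp1 lay close to all genes against the pooled other endothelial cells, once mixed barcodes were left out, but not against the cells poor in both gene groups. Over 21 genes the median log2 ratio was -0.20 in the control and 0.40 in SM22-SmoM2 wounds, and without mixed barcodes -0.14 and 0.07. Bst2, which tethers enveloped viruses, was at 843 against 1246 CPM and at 881 against 962 CPM, and Isg15, a ubiquitin-like modifier, at 887 against 849 CPM and at 1004 against 700 CPM. Antigen presentation genes had medians of -0.20 and 0.04 over 14 genes, and of -0.12 and -0.08 over 11 without mixed barcodes. Receptors for cytokines were near all genes, with medians of -0.04 and 0.22 over 10 genes and of -0.001 and -0.06 without mixed barcodes, although Il6st, which encodes the shared receptor gp130, was at 465 against 309 CPM and at 351 against 232 CPM.

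The lists of vessel types, without the genes of the rule, differed in sign. Venular genes had medians of 0.20 and 0.50 over 9 genes, and of 0.26 and 0.28 without mixed barcodes, with Lrg1, a secreted glycoprotein of inflamed vessels, at 1291 against 720 CPM and at 1479 against 852 CPM. Plvap, the diaphragm protein of fenestrae, was at 1314 against 1642 CPM and at 1507 against 1268 CPM, and without mixed barcodes its log2 ratio in SM22-SmoM2 wounds was -0.05 (-0.18 to 0.07). Capillary genes had medians of -0.52 and -0.47 over 6 genes, and of -0.43 and -0.45 over 5 without mixed barcodes. The summed capillary list was lower in activated cells of control wounds, at 4531 against 5226 CPM, and at 5067 against 5660 CPM without mixed barcodes. In SM22-SmoM2 wounds the sum was higher in activated cells, at 4005 against 3015 CPM, and at 4390 against 4159 CPM without mixed barcodes. Arterial genes had -0.67 and -0.31 over 5 genes, and -0.67 and -0.53 without mixed barcodes. The water channel gene Aqp1, often counted with capillary genes, was higher in activated cells, at 1212 against 1096 CPM and at 1683 against 1020 CPM, and at 1352 against 1191 CPM and 1907 against 1447 CPM without mixed barcodes. Angiogenic genes had medians of -0.47 and -0.13 over 13 genes with all barcodes and of -0.43 and -0.44 without mixed ones. For genes of haemostasis and vessel tone the medians were 0.04 and 0.50 over 11 genes with all barcodes and 0.07 and 0.115 over 10 without mixed ones. Small GTPase and dual-specificity phosphatase genes had 0.10 and 0.30 over 9, and -0.02 and 0.01 over 8. Endothelial transcription factors had -0.19 and 0.21 over 14 genes with all barcodes, and -0.19 and -0.11 without mixed ones.

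Cell cycle genes had medians of -0.62 and -1.17 over 7 genes, and of -0.15 and -1.36 over 5 without mixed barcodes. Top2a, a marker of dividing cells, had 14 UMIs (12.7 CPM) in the activated cells of control wounds and 3 UMIs (6.57 CPM) in those of SM22-SmoM2 wounds, against 18.8 and 38.2 CPM in other endothelial cells. Lymphatic genes differed between the libraries. The 7 genes summed to 1112 CPM in activated cells of control wounds, where Ccl21a gave 1121 of 1225 UMIs, and to 32.9 CPM in SM22-SmoM2 wounds, where Ccl21a, Lyve1 and Reln were at 0. Cells with 2 or more lymphatic genes were 3 in control wounds and 0 in SM22-SmoM2 wounds, and the part of these cells in the comparisons was not tested.

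Within the activated cells, those with more activation genes also had more of the NF-kB feedback transcripts, of which Nfkbia gave the larger part. Nfkbia alone was at 3053 CPM in control cells with 5 or 6 activation genes and at 1648 CPM in those with 3 or 4. In SM22-SmoM2 wounds it was at 2938.5 and 2006 CPM. In control wounds the list summed to 4793 CPM (4599 to 4993) in the 55 cells with 5 or 6 activation genes and to 2541 CPM (2417 to 2669) in the 78 cells with 3 or 4, and in SM22-SmoM2 wounds to 4484 CPM (4188 to 4795) in 25 and 3205 CPM (2993 to 3427) in 43 cells. Cells with a Csf3 UMI were at 4758 against 3028 CPM in the control and 5573 against 3309 CPM in SM22-SmoM2 wounds, and 110 of the 117 control Csf3 UMIs lay in cells with 5 or 6 genes. Since the genes of the rule made both splits, these sums describe the choice of cells and support nothing further. The order of the immediate early list in SM22-SmoM2 wounds depended on mixed barcodes. It summed there to 15066 CPM in cells with 5 or 6 genes and to 17916 CPM in cells with 3 or 4, and without the 3 mixed barcodes to 15245 CPM (14670 to 15838) and 14684 CPM (14186 to 15195). In the control it summed to 15586 and 10522 CPM with all barcodes and to 15669 and 10541 CPM without mixed ones.

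Ackr1 divided the activated cells. Cells with an Ackr1 UMI, 93 of 133 and 35 of 68, had venular sums of 5966 and 6194 CPM, against 2645 and 4016 CPM in cells without one, a list that includes Ackr1. The capillary list moved with the same split, at 5459 against 2583 CPM and 4887 against 3037 CPM, so the difference was not particular to venular genes. Their NF-kB feedback sums were closer, at 3739 against 3061 CPM in the control and 3832 against 3634 CPM in SM22-SmoM2 wounds. Without mixed barcodes the venular sums were 6367 against 3417 CPM and 6591 against 4911.5 CPM. The capillary sums were then 5753 against 3354 CPM and 4897 against 3746.5 CPM. The NF-kB feedback sums were 3781 against 2913 CPM and 3879 (3624 to 4147) against 3432 CPM (3163 to 3718). Ackr1 was therefore seen in 69.92% and 51.47% of activated cells, and the others were activated by the rule without it.

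At the threshold of the rule, cells just inside and just outside were as follows, with Nfkbia again the larger part of the NF-kB feedback sums. Mixed barcodes were 3 of the 39 control cells with exactly 3 activation genes and at most 1 capillary or arterial gene, 4 of the 30 with exactly 2, and 2 of 26 and 7 of 22 in SM22-SmoM2 wounds. With them left out, the 36 control cells inside had 1910 CPM (1747 to 2084) of NF-kB feedback transcripts and the 26 outside 1504 CPM (1312 to 1715), and the 24 and 15 cells of SM22-SmoM2 wounds had 2536 CPM (2266 to 2830) and 1553 CPM (1270 to 1880). At the other edge, 90 control cells with exactly 1 capillary or arterial gene had 3380 CPM and 113 with exactly 2 had 3404 CPM, and 44 and 36 cells of SM22-SmoM2 wounds had 3759 and 3190 CPM.

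Between conditions, the activated cells made up 21.25% of endothelial cells in the control and 26.36% in SM22-SmoM2 wounds, with intervals that overlap. Without mixed barcodes the shares were 21.67% and 30.23%, and after thinning to 2500 UMIs, 29.22% and 28%, so the order of the libraries depended on depth. With 1 library per condition the values below compare 2 libraries and not the conditions.

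Among the activation genes, Selp and Csf3 were lower in activated cells of SM22-SmoM2 wounds than of the control, with log2 ratios of -0.67 (-0.96 to -0.39) and -1.01 (-1.71 to -0.37). In the other endothelial cells the ratios were -1.08 (-1.34 to -0.82) and -0.58 (-1.10 to -0.09), beside medians of -0.11 over all genes in either group. Without mixed barcodes Selp in other cells was at -0.70 (-0.97 to -0.44), and Csf3 at -0.19 (-0.72 to 0.30), from 37.0 against 32.4 CPM, so the lower Csf3 of other cells was within counting error. Icam1 at -0.07 (-0.28 to 0.14), Dusp2 at 0.10 (-0.16 to 0.35) and Rnd1 at 0.21 (-0.15 to 0.56) had intervals that include 0 in activated cells, and were at -0.66, -0.39 and -0.93 in the other cells. Without mixed barcodes those 3 values for other cells were -0.37, -0.05 and -0.56. Iigp1 was lower in activated cells of SM22-SmoM2 wounds, at -0.26 (-0.44 to -0.09), and at -0.25 (-0.43 to -0.08) without mixed barcodes, and in the other cells it was at -0.72 and -0.39. Ackr1 was lower in activated cells of SM22-SmoM2 wounds, at -0.57 (-0.84 to -0.31), while in the other cells it was at -0.43 with all barcodes and at -0.09 (-0.30 to 0.12) without mixed ones. One activated cell of control wounds held 26 of the 117 Csf3 UMIs, and 1 of SM22-SmoM2 wounds held 9 of 24.

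Among 4368 genes with at least 50 UMIs in the activated cells of both libraries together, 51 (1.17%) were at least 2-fold higher and 118 (2.7%) at least 2-fold lower in SM22-SmoM2 wounds. In the other endothelial cells, 54 of 4364 genes (1.24%) were higher and 55 (1.26%) lower. Without mixed barcodes, 28 of 3905 (0.717%) were higher and 113 (2.89%) lower in the activated cells, and 17 of 3905 (0.435%) higher and 26 (0.666%) lower in the other endothelial cells. Of the 28 higher genes, 25 were among the 51, and of the 113 lower genes, 66 were among the 118, so the lower genes were replaced to a larger degree than their number shows.

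Among the named higher genes, Gm8797, Gm6133 and Rnaset2a kept their ratio without mixed barcodes. Gm8797 was at 247 CPM in the activated cells of the control and 905 CPM in those of SM22-SmoM2 wounds, with log2 ratios of 1.87 (1.65 to 2.10) with all barcodes and 1.83 without mixed ones, Gm6133 at 23.6 against 89.8 CPM, with 1.93 and 2.01, and Rnaset2a, a ribonuclease gene with a near-identical copy, at 24.5 against 85.5 CPM, with 1.80 and 1.81. The same 3 genes were higher in the other endothelial cells of SM22-SmoM2 wounds, with ratios of 1.89, 1.41 and 1.33. The difference between libraries was thus shared by activated and other endothelial cells. Gm8797 and Gm6133 are predicted genes whose reads could belong to related sequences.

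The named genes Ccl2, Cxcl1, Serping1 and Meg3 were carried by a few barcodes. Ccl2, a monocyte chemokine, was at 61.7 CPM in the control and 486 CPM in SM22-SmoM2 wounds, a log2 ratio of 2.98 (2.58 to 3.39), but 1 cell held 126 of the 222 UMIs, and without mixed barcodes the ratio was 0.14 (-0.73 to 0.96). For Cxcl1 the ratio went from 1.73 (1.55 to 1.91) to 0.34 (0.09 to 0.59), with 202 of 599 UMIs in 1 cell. Serping1, an inhibitor of complement C1, went from 1.92 to 0.51 (-0.86 to 1.80), and the imprinted RNA Meg3 from 1.87 to -0.10 (-1.25 to 0.95). Cxcl2, which the rule did not name, went from 1.66 to -0.20 (-0.86 to 0.43).

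Among the named lower genes, Emp2, Mphosph10 and Exosc5 kept their ratios. Emp2, a membrane protein that binds integrins, had 61 UMIs (55.4 CPM) in the control and 4 (8.76 CPM) in SM22-SmoM2 wounds, a log2 ratio of -2.66 (-4.58 to -1.23), and -2.87 without mixed barcodes, and of -1.17 in the other endothelial cells. Mphosph10, a factor of ribosome assembly, was at 48.1 against 10.9 CPM and Exosc5, a subunit of the RNA exosome, at 40.8 against 10.9 CPM, with ratios of -2.13 and -1.90. In the other endothelial cells the ratios were -0.17 (-0.56 to 0.22) and -0.05 (-0.44 to 0.32), and the values in activated cells of SM22-SmoM2 wounds rest on 5 UMIs each.

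Gpm6b, a gene of Schwann cells, was at 50.8 CPM in the control and at 8.76 CPM in SM22-SmoM2 wounds, a ratio of -2.54 (-4.46 to -1.10), and of -3.11 without mixed barcodes. Cd74 had ratios of -1.91 and -1.34. Mmp11, a stromal metalloproteinase gene with 83 of 109 control UMIs in 1 cell, had a ratio of -3.91, and of -0.34 (-3.68 to 2.15) without mixed barcodes. Htra3, a serine protease gene, went likewise from -1.83 to -1.14 (-3.15 to 0.42), with 55 of 86 control UMIs in 1 cell.

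**Figure D5:**
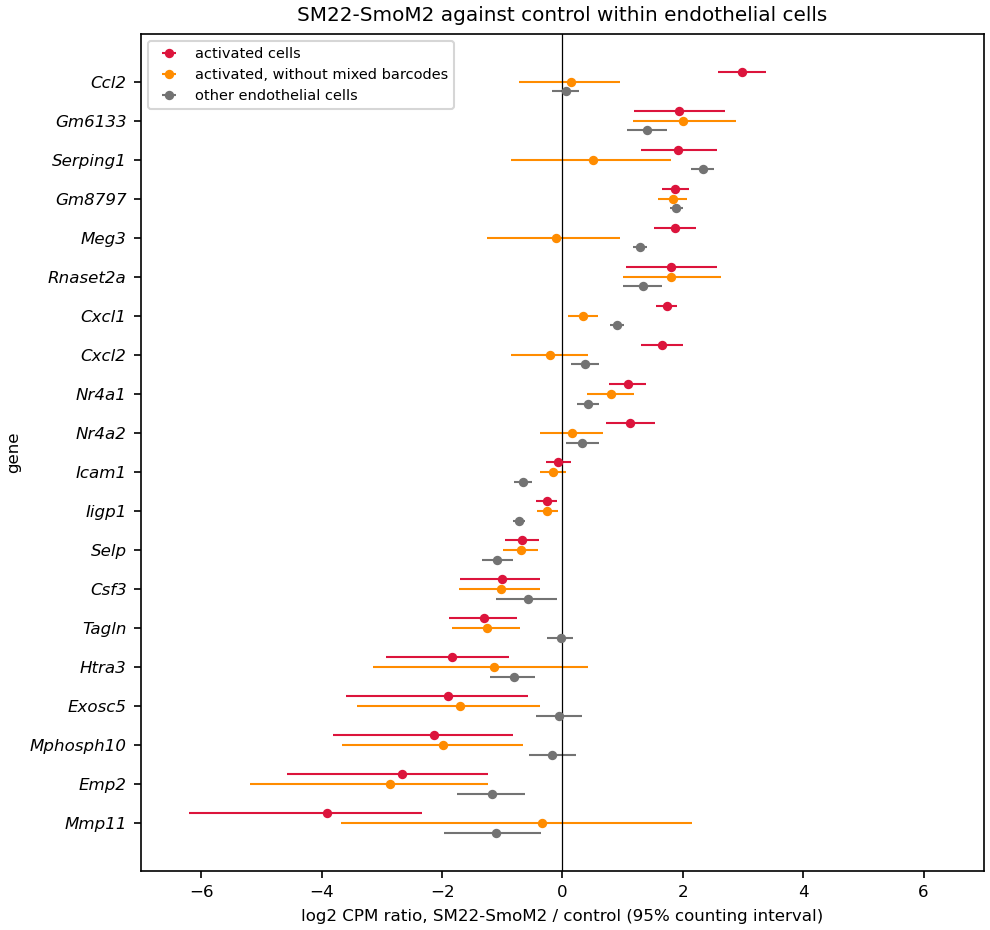
Log2 CPM ratio of the SM22-SmoM2 to control wounds (horizontal, with 95% counting intervals) for named genes (rows) in activated cells (red), in activated cells without mixed barcodes (orange) and in other endothelial cells (grey). Ccl2, Serping1, Meg3, Cxcl1 and Cxcl2 move to intervals that reach or come close to 0 without mixed barcodes, while Gm6133, Gm8797 and Rnaset2a stay in place.

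Hedgehog pathway genes were scarce. Ptch1, the receptor and a target of the pathway, had 9 UMIs (8.17 CPM) in the activated cells of the control and 24 (52.6 CPM) in those of SM22-SmoM2 wounds, a log2 ratio of 2.69 (1.53 to 3.98), and of 1.44 (-0.22 to 3.14) without mixed barcodes. The target Gli1 had 2 and 6 UMIs, and without mixed barcodes it was at 0 in both libraries. In other endothelial cells the Ptch1 ratio was 2.62 with all barcodes and 0.50 (-0.16 to 1.13) without the mixed ones. Smo, the gene whose activated form is expressed in SM22-SmoM2 mice, was at 27.2 and 21.9 CPM, a ratio of -0.31 (-1.51 to 0.76). The sources used here do not say whether SmoM2 transcripts are counted under Smo, so these values need not measure SmoM2 expression. Tagln, the gene of the driver, had a ratio of -1.30 (-1.88 to -0.76) in activated cells and of -0.03 (-0.25 to 0.18) in the other endothelial cells, and without mixed barcodes of -1.25 (-1.84 to -0.70) and -0.33 (-0.61 to -0.05).

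By list, the activated cells of SM22-SmoM2 wounds were compared with those of the control by median log2 ratio, and some lists stood away from all genes. The median over all genes was -0.11 with all barcodes and -0.12 without mixed ones. Immediate early genes had a median of 0.35 over 20 genes, 16 of them above 0 against 37.6% of all genes, and of 0.14 without mixed barcodes, 15 of them above 0 against 35.9%. Junb was at 0.52 (0.43 to 0.61) and 0.37 (0.27 to 0.47), Ier3 at 0.55 and 0.46, and Nr4a1, an orphan nuclear receptor, at 1.09 (0.78 to 1.39) and 0.80 (0.41 to 1.19), with and without mixed barcodes. In the other endothelial cells the list's median was -0.01.

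The NF-kB feedback list had a median of -0.14, and of -0.03 without mixed barcodes, the interferon list -0.01 and -0.03, the adhesion list 0.11 and 0.11, the venular list 0.05 and 0.08, antigen presentation -0.24 and -0.22 and heat shock -0.15 and -0.20. Cytokines and chemokines had 0.18 and -0.19, angiogenic genes -0.26 and -0.33, haemostasis and tone -0.26 and -0.34, cytokine receptors -0.24 and -0.28, endothelial factors -0.19 and -0.17, and small GTPase and phosphatase genes -0.28 and -0.34. Capillary genes stood at -0.54 and -0.63 over 5 genes, of which 2 were above 0 and 3 below 0 with and without mixed barcodes. Of all genes, 37.6% were above and 62.4% below 0 with all barcodes, and 35.9% and 64.1% without mixed ones. Cd36, a fatty acid transporter, was at 79.0 against 37.2 CPM, and Fabp4, a fatty acid binding protein, at 2526 against 1707 CPM. Aqp1 went the other way and was higher in SM22-SmoM2 wounds. In the other endothelial cells Cd36 and Fabp4 had ratios of -1.16 and -1.49, so both were lower in SM22-SmoM2 wounds in activated and other cells. Arterial genes, 4 with all barcodes and 3 without the mixed ones, had 0.09 and -0.42, and 2 cell cycle genes 0.15 and 0.18. Among lists of other cell types, fibroblast genes had 0.40 over 6 genes with all barcodes and -0.61 over 5 without mixed ones, and the 3 Schwann, 3 immune and 3 keratinocyte genes tested had medians of -2.82, -2.82 and -4.71 with all barcodes. Their part in the differences between the libraries was not tested beyond the values without mixed barcodes.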

How the data were processed

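Tomato-positive dermal cells of 2 mouse wound libraries, control and SM22-SmoM2, had been captured with a droplet kit for 3' transcripts. The authors deposited UMI counts per gene and cell, made per the labels with bcl2fastq and Cell Ranger on mm10; versions are not given in the sources used here. These counts hold 27998 genes and 2878 control and 1802 SM22-SmoM2 cells. After 22 and 10 cells above 10% mitochondrial UMIs were left out, 2856 cells with 30103855 UMIs (3128 to 65167 per cell) and 1792 cells with 17814222 UMIs (2538 to 38806) remained. The deposited barcode list holds the kit's 737280 barcodes and names no matrix column, so barcodes shared between the libraries were not counted. No doublet caller was run.

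UMIs were summed over the cells of a group and divided by the group's total (CPM). Intervals are exact at 95%, Poisson for CPM, Clopper-Pearson for shares and conditional binomial for log2 ratios. Replicates being absent, no test was run, and calls mean at least 2-fold. Genes needed 50 UMIs, in the endothelial cells of each library for activated against other cells and in the activated cells of both libraries together for SM22-SmoM2 against control. A count of 0 was set to 3 UMIs in ratios, and no ratio is given where both groups had 3 or fewer.

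The named genes were the 15 highest and 10 lowest by the smaller of both libraries' log2 ratios, and the 8 highest and 8 lowest between libraries with an interval leaving out 0, each seen in at least 10 cells of the higher group. The 17 genes of the rule, mitochondrial, ribosomal protein, Xist and Y-linked genes were left out. Some genes that the naming rule picked are not reported here. Members, rule and 24 gene lists (306 genes found, Cebpd not found) were chosen with earlier results of these data known. The mixed barcode limit of 1% was chosen after seeing the data. Other-lineage groups were cells with at least 3 UMIs of lineage markers and none of Pecam1, Cdh5 and Egfl7. Gene positions came from GENCODE, which held 27645 of the gene IDs. The code was tested on simulated data. Python 3.11.15, numpy 2.4.6, scipy 1.17.1, pandas 2.3.3 and matplotlib 3.10.9 were used. Alternatives changed the rule's thresholds, cell filters, the minimum of UMIs and the scaling.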

Additional observations from a re-analysis of the deposited data

Results flagged for a closer look

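For 5 genes, 2 groups of cells stood on opposite sides of 0 under the same contrast, and the difference was not tested for any of them. Cxcl10 in SM22-SmoM2 relative to control had a log2 ratio of 0.62 in activated cells and of -0.40 in the other endothelial cells, and 0.45 and -0.16 without mixed barcodes. The interferon-induced antiviral gene Rsad2 had 0.61 and -0.62, and 0.60 and -0.23 without mixed barcodes. Ccl2 in activated relative to other endothelial cells had a log2 ratio of -0.87 in control wounds and of 2.05 in SM22-SmoM2 wounds, and 0.17 and 1.40 without mixed barcodes. Tagln had 0.48 in the control and -0.79 in SM22-SmoM2 wounds, and 0.56 and -0.36 without mixed barcodes. Lyz2, the lysozyme gene of myeloid cells, had 1.38 and -2.06, and without mixed barcodes both signs turned, to -2.40 (-4.04 to -1.14) on 5 UMIs in activated cells of the control and 1.26 (-1.51 to 3.82) on 3 UMIs in those of SM22-SmoM2 wounds.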

How the results depend on the processing

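No paired analysis was possible because each condition has 1 library, and no library could be left out. Precision is limited by 456421 UMIs in 68 activated cells of SM22-SmoM2 wounds. No cause was tested for the values below.

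The share of activated cells, 21.25% in the control and 26.36% in SM22-SmoM2 wounds, was 26.04% and 34.88% with at least 2 of the 6 genes, 15.02% and 16.28% with at least 4, 6.23% and 8.915% with none of the 5 capillary and arterial genes, and 66.77% and 58.53% with no limit on them, where the order of the libraries turned. Thinned to 2500 UMIs a cell, the control share was 29.22% and the SM22-SmoM2 share 28%, so the order turned there too.

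The 5 genes at least 2-fold higher and 39 lower in activated than in other cells became 23 and 112 with at least 4 of 6 genes, 10 and 63 with none of the 5, 104 and 194 with no limit on them, 18 and 10 after thinning and 17 and 124 at a minimum of 20 UMIs. Against cells with at most 1 capillary or arterial gene they were 473 and 317, and without mixed barcodes, an alternative chosen after seeing the data, 3 and 11, of which 0 and 8 were among the 5 and 39, as were 0 and 2 after thinning. The lower count alone moved to 15 with at least 2 of 6 genes, 59 without barcodes holding Xist and Y transcripts, 14 with endothelial cells taken at 6 UMIs, 80 with the mean of per-cell CPM, 23 at a minimum of 100 UMIs and 24 with thinned sums.

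The 51 higher and 118 lower genes between SM22-SmoM2 and control became 21 and 68 after thinning, 16 and 31 with thinned sums, 26 and 36 at a minimum of 100 UMIs, 165 and 486 at 20 and 89 and 185 with no limit on the 5. After thinning, 10 and 6 of these were among the 51 and 118. The higher count alone moved to 125 with at least 2 of 6 genes, 31 with at least 4 and 28 without mixed barcodes, and the lower count to 50 with none of the 5.

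Among named genes, 963 of the values recomputed moved by less than the interval, 311 by more and 29 changed sign. Sign changes were counted, and are listed below, only for ratios at least 2-fold as reported. Those of smaller ratios are within the 963 and the 311. Of list medians, 685 moved by less than the standard deviation of the list and 76 by more. The minimum of 20 UMIs and that of 100 gave 89 of the 963 each, and neither setting can change the ratio of a gene. Log2 ratios that changed sign between SM22-SmoM2 and control were, after thinning, Ccl2 at -0.82, Cxcl1 at -0.0041, Cxcl2 at -0.69, Meg3 at -0.25, Nr4a2 at -0.31, Serping1 at -1.05, Htra3 at 0.21 and Mmp11 at 0.47, and, without mixed barcodes, Cxcl2 at -0.20 and Meg3 at -0.10. Those of activated against other cells were as follows. Without mixed barcodes, Apod was at 1.008 and Penk at 0.14 in the control, and Cd74 at 0.99 and Cygb at 0.87 in SM22-SmoM2 wounds. With endothelial cells taken at 6 UMIs, Apod was at 0.76 and Penk at 0.79 in the control. After thinning, Apod was at 1.28 in the control, and Penk at 0.36 and Bcr at -0.15 in SM22-SmoM2 wounds. With at least 2 of 6 genes, Apod was at 0.18 and Penk at 0.11 in SM22-SmoM2 wounds and Cygb at 0.17 in the control. With no limit on the 5, Cd74 was at 0.19 in the control and 4.48 in SM22-SmoM2 wounds, where Ccl2 was at -0.37, Cxcl1 at -0.043 and Tlcd2 at -0.12. With none of the 5, Ptgs1 was at -0.33 there, and against cells with at most 1 capillary or arterial gene Cd74 was at 1.87.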
